A study of Rattus norvegicus with 30 samples.

Results

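The genes described here control how pyruvate enters mitochondrial oxidation. They are the pyruvate dehydrogenase kinases Pdk1, Pdk2, Pdk3 and Pdk4, the phosphatases Pdp1 and Pdp2, the complex subunits Pdha1, Pdhb and Dlat, and the pyruvate carrier subunit Mpc1. They were taken by symbol from a table of raw gene counts, where they are 10 of 17455 rows, and all 10 were among the 12547 genes with enough counts to be tested. Pdk4 was included because of earlier results from these same counts, in which its diet effect had opposite signs in the 2 sexes. Its diet values are therefore given as a description and carry no test. RNA came from dorsal hippocampus of rats and was sequenced as 30 libraries of polyadenylated RNA. The libraries labelled alzheimer are from TgF344-AD, a transgenic rat line with familial Alzheimer's disease transgenes, among them a mutant human APP that the mouse prion promoter drives. For the wildtype rats the labels name no transgene. Rats of both genotypes ate either a western diet or standard chow. The female groups were alzheimer on western (n = 3), alzheimer on chow (n = 4), wildtype on western (n = 3) and wildtype on chow (n = 4). The male groups were the same combinations with 4 libraries each. The libraries belong to 2 cohorts, with 16 in cohort 2 and 14 in cohort 1, and no age is given.

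The pyruvate dehydrogenase complex of the mitochondrial matrix turns pyruvate into acetyl-CoA and so links glycolysis to the tricarboxylic acid cycle, the main route of glucose oxidation in neurons. The kinases phosphorylate the alpha subunit of its first enzyme and switch the complex off, and the phosphatases remove those phosphates and switch it on again. Pdk4 is the kinase known for its induction by fasting, glucocorticoids, fatty acids acting through PPARs and low insulin acting through FoxO factors, best studied in muscle, heart and liver.

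The promoters of 3 kinases are shown because these kinases differ most in how they varied: Pdk4 varied most between libraries of all 10 genes, Pdk3 was the member that differed by genotype, and Pdk2 varied least. Each is 300 bases from RefSeq (rat assembly GRCr8), 250 before to 50 after the annotated start, read 5′ to 3′ along the gene, and all 3 genes lie on the minus strand. Capitals mark matches to the GC box (GGGCGG or CCGCCC), the CCAAT box (CCAAT or ATTGG) and the E-box (CACGTG). The Pdk4 promoter lies at chr4:34568280-34568579, that of Pdk3 at chrX:62547322-62547621 and that of Pdk2 at chr10:80483863-80484162.
Pdk4: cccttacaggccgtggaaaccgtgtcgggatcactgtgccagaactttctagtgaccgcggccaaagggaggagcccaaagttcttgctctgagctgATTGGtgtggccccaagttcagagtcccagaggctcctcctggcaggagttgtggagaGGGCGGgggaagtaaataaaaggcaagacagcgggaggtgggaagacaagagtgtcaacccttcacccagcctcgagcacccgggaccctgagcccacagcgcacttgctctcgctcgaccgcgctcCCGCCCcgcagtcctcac
Pdk3: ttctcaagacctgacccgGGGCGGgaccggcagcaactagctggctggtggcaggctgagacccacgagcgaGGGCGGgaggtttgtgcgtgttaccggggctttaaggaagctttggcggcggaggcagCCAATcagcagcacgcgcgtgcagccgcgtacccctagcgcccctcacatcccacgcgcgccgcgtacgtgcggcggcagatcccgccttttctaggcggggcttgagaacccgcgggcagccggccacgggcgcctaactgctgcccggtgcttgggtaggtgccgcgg
Pdk2: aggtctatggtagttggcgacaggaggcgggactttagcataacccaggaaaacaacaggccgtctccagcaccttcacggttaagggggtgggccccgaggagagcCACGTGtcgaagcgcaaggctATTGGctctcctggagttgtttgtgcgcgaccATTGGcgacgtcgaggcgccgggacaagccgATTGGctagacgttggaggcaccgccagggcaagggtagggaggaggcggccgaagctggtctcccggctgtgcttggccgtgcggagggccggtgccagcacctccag
Counted from the start, Pdk4 has GC boxes at -95 and 33 and a CCAAT box at -153. Pdk3 has GC boxes at -232 and -178 and a CCAAT box at -120. Pdk2 has no GC box match in this window, and has an E-box at -143 and CCAAT boxes at -122, -90 and -59. The GC content was 61.3% in Pdk4, 69.3% in Pdk3 and 64% in Pdk2, against a median of 51.7% over all 33469 rat promoters of this length. Entries were found for 8 of the 10 members, all but Pdp1 and Pdp2. On either strand, a GC box stood in 6 of these 8, against 33.1% of all promoters, and a CCAAT box in 4 of 8, against 37.5%. The E-box stood in Pdk2 and Pdhb, against 6.42% of all promoters. Letters of a glucocorticoid receptor half-site (AGAACA, in 20.7% of all promoters) stood in 0 of 8. The FoxO core (GTAAACA, 3.78%) stood in Pdhb alone, and the nuclear receptor half-site (AGGTCA, 16.2%) in Pdhb and Dlat. The TATA box letters TATAAA (14.2%) stood in 0 of 8. These matches describe letters in a short window and say nothing of binding.

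The depth was 13.9 to 31.4 M counts per library, where M stands for mega. CPM are counts per M after library sizes were adjusted. App, at 3294 ± 76.3 CPM in the 15 alzheimer libraries, stood at 1672 ± 52.7 CPM in the 15 wildtype libraries (SD), with no overlap between the genotypes. The 12 neuron markers summed to between 11780 and 13430 CPM per library. Nothing in the labels says that every library is another animal, so the p-values rest on spread among libraries that may in part be technical. In bulk tissue, fewer cells of a type and less RNA per cell cannot be told apart.

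Pdk4 stood high on the western diet in females and on chow in males, so that the diets were ordered oppositely in the sexes. In alzheimer females on western it had 5.43, 7.01 and 5.54 CPM, and on chow 3.54, 4.44, 3.55 and 2.25 CPM. In wildtype females on western it had 10.9, 5.49 and 7.26 CPM, and on chow 2.38, 3.78, 1.545 and 3.19 CPM. All 6 western females stood above all 8 chow females, so the diets did not overlap in females. In alzheimer males on western Pdk4 had 2.495, 3.23, 1.41 and 4.075 CPM, and on chow 2.90, 7.49, 4.49 and 10.2 CPM. In wildtype males on western it had 2.98, 1.60, 2.32 and 2.53 CPM, and on chow 11.5, 5.24, 6.98 and 9.13 CPM. Among males 5 of 8 western libraries stood below every chow library, and the diets overlapped through 1 alzheimer chow library, replicate 3 at 2.90 CPM. All 8 western males were below the mean of the chow males of their genotype.

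**Figure D1:**
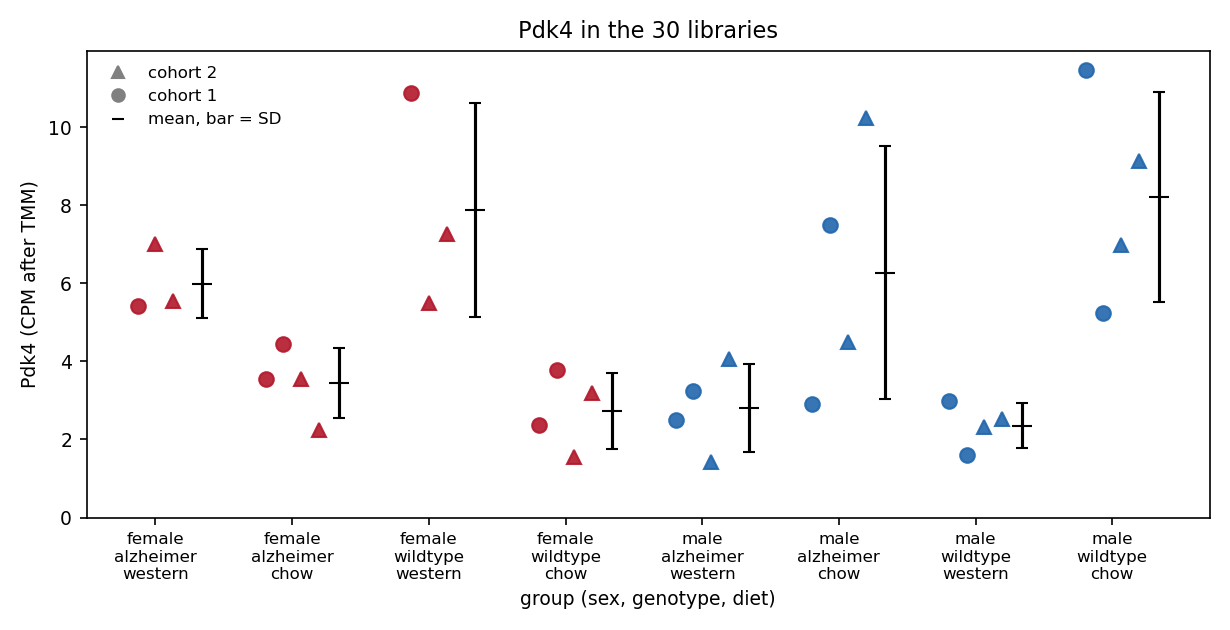
Pdk4 in CPM (vertical axis, linear from 0) in each of the 30 libraries, by sex, genotype and diet, with triangles for cohort 2, circles for cohort 1 and bars for the mean ± SD of each group. Western females (5.43 to 10.9 CPM) lie above chow females (1.545 to 4.44 CPM) in both genotypes, and western males (1.41 to 4.075 CPM) lie mostly below chow males (2.90 to 11.5 CPM).

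Averaged over genotypes, Pdk4 was at 6.94 ± 2.10 CPM in western females (SD, n = 6) and 3.09 ± 0.95 CPM in chow females (n = 8). It was at 2.58 ± 0.864 CPM in western males and 7.24 ± 2.95 CPM in chow males (n = 8 each). The fitted diet effect was 1.17 ± 0.24 on the log2 scale in females (SE), a fold of 2.25, and -1.49 ± 0.23 in males, a fold of 0.357. These values carry no test, since Pdk4 was chosen for them. The diet effect averaged over the sexes, which had opposite signs, was -0.16 ± 0.17. The difference between the sexes' diet effects was 2.66 ± 0.33, and it was 2.86 in cohort 2 alone and 2.48 in cohort 1 alone. Within cohort 2 western was 2.40 times chow in females and 0.335 times chow in males, and neither sex's diets overlapped. Within cohort 1 the ratios were 2.31 in females and 0.38 in males, where the diets overlapped, and only 1 library stands behind each female western group there.

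By genotype, the diet effect on Pdk4 in females was 0.83 ± 0.33 in alzheimer and 1.52 ± 0.33 in wildtype rats (log2, SE). In males it was -1.17 ± 0.33 in alzheimer and -1.80 ± 0.32 in wildtype rats. Both effects were nominally smaller in alzheimer rats, and the difference of these differences, the genotype by diet by sex term, was -1.32 ± 0.66 with an unadjusted p of 0.0546 and an adjusted p of 0.932 from edgeR's quasi-likelihood test. Because Pdk4 was chosen on diet within sexes, this term is not fully separate from the choice.

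Ordered by mean, the 8 groups fell into 2 sets for Pdk4. The upper set was wildtype males on chow (8.203 ± 2.69 CPM), wildtype females on western (7.88 ± 2.75 CPM), alzheimer males on chow (6.28 ± 3.25 CPM) and alzheimer females on western (5.99 ± 0.883 CPM). The lower set was alzheimer females on chow (3.45 ± 0.899 CPM), alzheimer males on western (2.80 ± 1.13 CPM), wildtype females on chow (2.73 ± 0.975 CPM) and wildtype males on western (2.36 ± 0.576 CPM). Neighbours within each set overlapped, and the neighbours across the gap, alzheimer females on western and alzheimer females on chow, did not. Replicate 3 of the alzheimer males on chow, at 2.90 CPM, stood in the range of the lower set, and replicate 25, at 4.49 CPM, stood just above its highest library at 4.44 CPM.

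Genotype by itself was not seen to move Pdk4. It averaged 4.54 ± 2.31 CPM in alzheimer libraries and 5.12 ± 3.33 CPM in wildtype libraries (SD, n = 15 each), a log2 change of -0.056 ± 0.17 with an interval from -0.38 to 0.27 (adjusted p = 0.892, edgeR). Sex averaged over diets gave 4.74 ± 2.47 CPM in females and 4.91 ± 3.19 CPM in males, and the fitted log2 change was 0.11 ± 0.17 with an interval from -0.21 to 0.44 (adjusted p = 0.813). The plain means are lower in females and the fitted change, which weights the strata equally on the log scale, is above 0, so no direction is read from it. Both intervals are wide and leave room for changes larger than those measured for any other member.

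Pdk3 was the member that differed by genotype. It encodes a kinase known for its high catalytic activity, and its gene is X-linked, as is Pdha1. Over the 15 alzheimer libraries Pdk3 had a lowest value of 33.3 CPM, a median of 37.3 CPM and a highest of 40.7 CPM, against 30.6, 33.8 and 38.6 CPM over the 15 wildtype libraries. The genotypes overlapped widely, and 3 alzheimer libraries stood above every wildtype library. Pdk3 averaged 36.9 ± 2.18 CPM in alzheimer libraries and 34.2 ± 2.22 CPM in wildtype libraries (SD), and rose by 0.12 ± 0.033 on the log2 scale with an interval from 0.053 to 0.18 (adjusted p = 0.023, edgeR). Relative to the wildtype mean of the same sex and diet, 13 of 15 alzheimer libraries were higher. Pdk3 was thereby 1 of 10 members called for genotype, or 10% of them, where 8.03% of all tested genes were called, so the share of members called is near the background.

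The largest separation for Pdk3 was in females on the western diet. It was not seen in males, and the genotype by diet by sex term did not pass (0.227, adjusted p = 0.932, edgeR). Alzheimer females on western had 38.0, 39.6 and 36.7 CPM, against 33.7, 30.6 and 33.8 CPM in wildtype females on western. These 2 groups did not overlap, but each holds only 3 libraries. How many of all genes separate in this way was not counted, so nothing is read from it. On chow, alzheimer females had 37.6, 33.3, 35.8 and 33.6 CPM, against 31.7, 35.8, 36.95 and 34.2 CPM in wildtype females, and the groups overlapped. Alzheimer males on western had 37.3, 35.9, 39.2 and 37.9 CPM, against 36.8, 38.6, 31.2 and 33.2 CPM in wildtype males on western. Alzheimer males on chow had 40.7, 38.0, 34.7 and 34.8 CPM, against 33.2, 34.3, 35.25 and 33.0 CPM in wildtype males on chow. In males the genotypes overlapped on both diets.

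**Figure D2:**
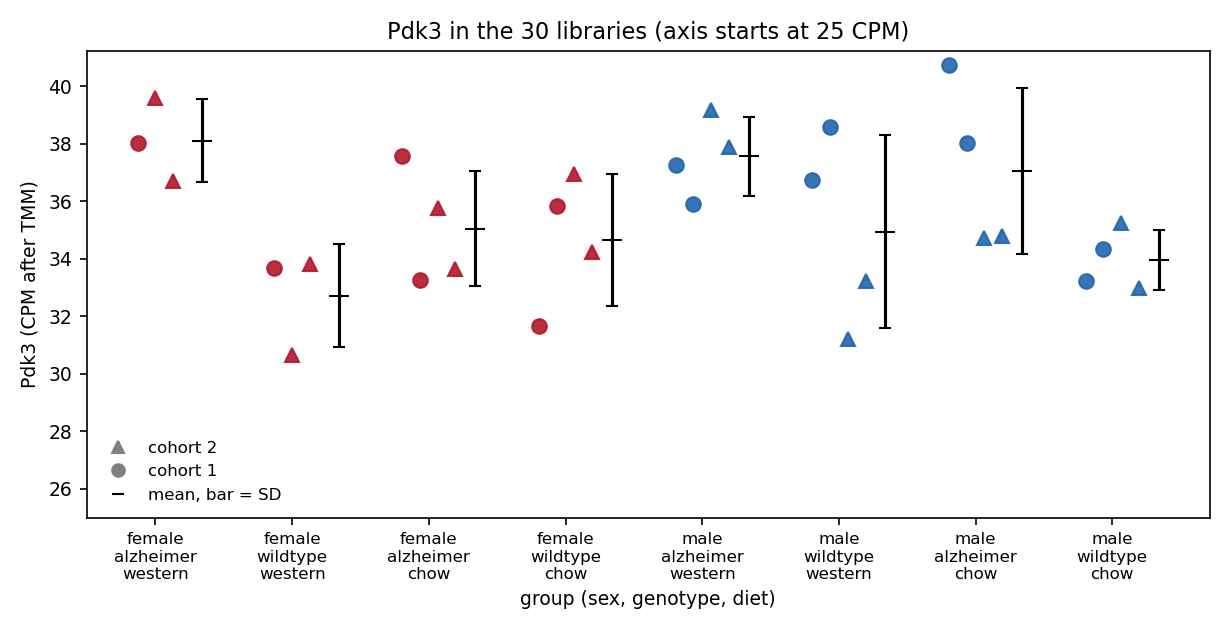
Pdk3 in CPM (vertical axis, starting at 25 CPM) in each of the 30 libraries, with alzheimer left of wildtype for each sex and diet, triangles for cohort 2, circles for cohort 1 and bars for the mean ± SD. Alzheimer females on western (36.7 to 39.6 CPM) lie apart from wildtype females on western (30.6 to 33.8 CPM), with only 3 libraries in each. The other pairs overlap.

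Fitted on the western diet alone, the genotype effect on Pdk3 was 0.16 ± 0.049 (adjusted p = 0.0597, edgeR), and on chow it was 0.074 (adjusted p = 0.588). The difference of the 2, the genotype by diet term, was 0.089 with an adjusted p of 1, so the diets were not shown to differ. The genotype effect was 0.12 ± 0.049 in females (adjusted p = 0.2) and 0.12 ± 0.046 in males (adjusted p = 0.242). The call for genotype rests on single libraries. It ended without alzheimer female western replicate 18 (log2 change 0.11, adjusted p = 0.0585) and without wildtype female western replicate 17 (0.11, adjusted p = 0.0627). In each cohort alone Pdk3 was not called, with 0.12 in cohort 2 (adjusted p = 0.108) and 0.11 in cohort 1 (adjusted p = 0.496).

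Pdk1 and Pdk2 passed the test in no comparison. Pdk1, which is induced by HIF-1 in low oxygen, had between 34.2 and 42.8 CPM over the 30 libraries. It averaged 37.8 ± 2.59 CPM in alzheimer libraries and 37.4 ± 2.50 CPM in wildtype libraries, a log2 change of 0.022 ± 0.037 (adjusted p = 0.801, edgeR). Pdk2, the broadly expressed kinase, ran from 187 to 219.5 CPM. It averaged 205.7 ± 8.23 CPM in alzheimer libraries and 206.8 ± 4.98 CPM in wildtype libraries, a log2 change of -0.0090 ± 0.021 (adjusted p = 0.854). In females Pdk2 averaged 208.4 ± 4.65 CPM and in males 204.4 ± 7.78 CPM, and 12 of 14 females stood above the male mean of their genotype and diet, with a log2 change of 0.030 ± 0.021 that did not pass (adjusted p = 0.538). The diet effect on Pdk1 was -0.048 ± 0.055 in females and 0.047 ± 0.051 in males, and that on Pdk2 was 0.016 ± 0.030 in females and 0.0097 ± 0.028 in males.

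Of the phosphatases, Pdp1 had the smallest p of any member for diet, without passing the test. Pdp1 is the calcium-stimulated phosphatase of the complex. Over the 14 western libraries it had a lowest value of 38.8 CPM, a median of 42.6 CPM and a highest of 50.03 CPM, against 36.2, 40.3 and 46.2 CPM over the 16 chow libraries. The diets overlapped, with 3 western libraries above every chow library and 10 of 14 above the matched chow mean. The log2 change was 0.11 ± 0.035, with an unadjusted p of 0.00398 and an adjusted p of 0.822 (edgeR). In females Pdp1 averaged 43.2 ± 3.95 CPM on western and 39.1 ± 1.58 CPM on chow, and 4 of 6 western females stood above every chow female. That effect was 0.15 ± 0.051 (adjusted p = 0.287), and in males it was 0.063 ± 0.047 (adjusted p = 0.655), with a difference between sexes of 0.089 ± 0.069 (adjusted p = 0.596). Pdp2, the phosphatase that calcium does not stimulate, had few counts and ran from 4.72 to 10.03 CPM. It averaged 6.76 ± 1.37 CPM in alzheimer libraries and 6.12 ± 0.922 CPM in wildtype libraries, a log2 change of 0.11 ± 0.088 (adjusted p = 0.485), close in size to that of Pdk3 but with a wider error.

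Of the subunits, Dlat, the acetyl transferase core of the complex, came closest to a genotype call after Pdk3. It had a lowest value of 103.6 CPM, a median of 110.4 CPM and a highest of 123.5 CPM in alzheimer libraries, against 95.9, 104 and 123 CPM in wildtype libraries (n = 15 each). The genotypes overlapped, with 7 wildtype libraries below every alzheimer library and 1 alzheimer library above every wildtype library, and 12 of 15 alzheimer libraries stood above the matched wildtype mean. The log2 change was 0.071 ± 0.027, with an unadjusted p of 0.0129 and an adjusted p of 0.103 (edgeR). Pdha1 and Pdhb encode the alpha and beta subunits of the first enzyme, and Pdha1 carries the serines that the kinases phosphorylate. Their genotype changes were -0.020 ± 0.022 for Pdha1 (adjusted p = 0.664) and 0.0058 ± 0.023 for Pdhb (adjusted p = 0.921).

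By sex, the first-enzyme subunits and the carrier leaned lower in females, and none of these differences passed. Pdha1 averaged 264 ± 11.1 CPM in females and 274 ± 12.4 CPM in males, and 12 of 14 females stood below the matched male mean (log2 change -0.055 ± 0.022, unadjusted p = 0.0174, adjusted p = 0.221, edgeR). Pdhb averaged 157 ± 6.99 CPM in females and 163 ± 7.31 CPM in males, with 11 of 14 females below the matched male mean (-0.051 ± 0.023, adjusted p = 0.295). Mpc1 encodes a subunit of the carrier that brings pyruvate across the inner mitochondrial membrane. It ran from 94.8 to 113.7 CPM in females, with a median of 107.4 CPM, and from 98.1 to 119 CPM in males, with a median of 113.1 CPM. Although the sexes overlapped, all 14 females stood below the matched male mean, and the change was -0.075 ± 0.025 (unadjusted p = 0.00527, adjusted p = 0.139). In all, 0 of 10 members were called for sex, 3 had an unadjusted p under 0.05, and 0 were called by DESeq2, where 0.837% of all tested genes were called by edgeR and 14.8% had an unadjusted p under 0.05. By diet, all 6 western females stood below the matched chow mean for Pdha1, and that change was -0.051 ± 0.032 (adjusted p = 0.639).

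**Figure D3:**
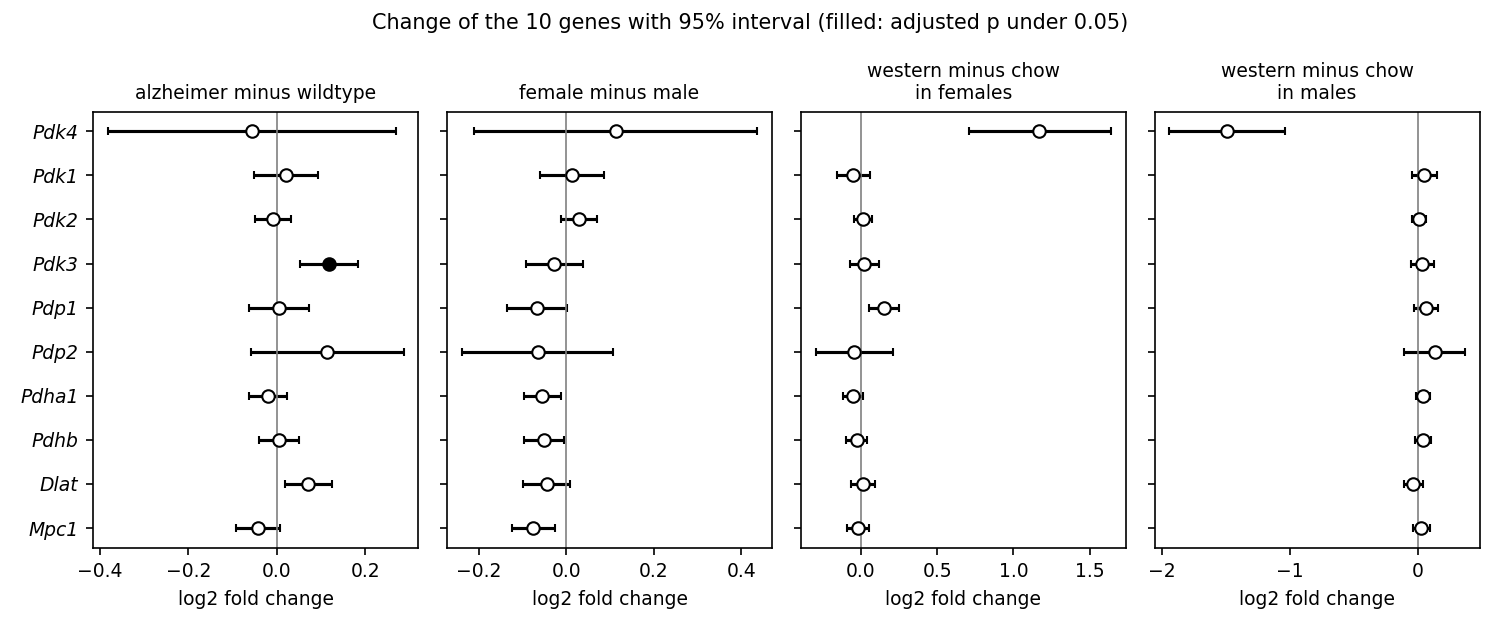
Log2 fold changes (horizontal axes, which differ in scale) of the 10 members for alzheimer minus wildtype, female minus male, and western minus chow in females and in males, with intervals of 95% and filled circles where the adjusted p was under 0.05; the diet values of Pdk4 were not tested. Pdk3 for genotype (0.12) is the filled point, and Pdk4 stands apart for diet at 1.17 in females and -1.49 in males.

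Besides Pdk4, 9 members could be tested for diet, and edgeR and DESeq2 each called 0 of them in every diet comparison. Averaged over sexes their changes lay between -0.013 and 0.11 on the log2 scale, and 0.00797% of all tested genes were called. An unadjusted p under 0.05 was reached by 1 of 9 members and 5.55% of all genes. In females their changes lay between -0.051 and 0.15, and 0.183% of all genes were called. There 1 of 9 members and 9.56% of all genes had an unadjusted p under 0.05, so the members' share is near the background. In males they lay between -0.038 and 0.13, and 0.128% of all genes were called, with 0 of 9 members and 11% of all genes at an unadjusted p under 0.05. For the difference between the sexes' diet effects they lay between -0.17 for Pdp2 and 0.089 for Pdp1, and 1.23% of all genes were called, with 0 of 9 members and 14.7% of all genes at an unadjusted p under 0.05. The opposed diet values of Pdk4 in the 2 sexes were thus not accompanied by a detected change in another kinase, a phosphatase, a subunit or Mpc1.

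The interaction terms that involve genotype called no gene at all. For genotype by diet, genotype by sex and genotype by diet by sex, edgeR called 0% of the tested genes each and DESeq2 called 0. An unadjusted p under 0.05 was reached by 446 genes for genotype by diet, 528 for genotype by sex and 623 for the term of all 3 factors. It was reached by 0 members for genotype by diet, 0 for genotype by sex and 1 for the term of all 3 factors, which was Pdhb (-0.20 ± 0.092, adjusted p = 0.932, edgeR). Genotype within strata called 0 of 10 members in edgeR. The background was 1.25% of genes called in males, 2.57% in females, 3.17% on western and 0.901% on chow. Members at an unadjusted p under 0.05 numbered 2 in males, 1 in females, 2 on western and 0 on chow, against 13.1% of all genes in males, 16.2% in females, 16.8% on western and 11.3% on chow. DESeq2 called 1 member there, Pdk3 on western (0.16, adjusted p = 0.0339), and 0 in the other strata. For cohort 2 against cohort 1, edgeR and DESeq2 called 0 of 10 members, and 0.0877% of genes were called by edgeR. An unadjusted p under 0.05 was reached by 0 members and 12.6% of all genes. All 10 members were nominally lower in cohort 2, by log2 changes between -0.11 and -0.0046.

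Pdk4 also stood apart in how much it varied among libraries of the same group. Its biological coefficient of variation was 28.8%, rank 492 from the highest of 12547 tested genes, against 14% for Pdp2, 6.11% for Pdk1, 5.78% for Pdp1, 5.31% for Pdk3, 4.89% for Dlat, 4.45% for Mpc1, 4.27% for Pdhb, 4.16% for Pdha1 and 3.85% for Pdk2. Over all 30 libraries, the highest was 8.11 times the lowest for Pdk4, 2.13 times for Pdp2 and between 1.17 and 1.38 times for the others. These ratios include differences between groups, for Pdk4 the diet differences it was chosen for, and do not measure spread within a group. Pdk4 and Pdp2 are also the members with the fewest counts, with 25 to 192 counts per library for Pdk4, and their ratios include more counting noise. Among the 3 subunits, Pearson's r over the 30 libraries after group and cohort means were removed was 0.42 between Pdha1 and Pdhb, 0.538 between Pdha1 and Dlat and -0.0065 between Pdhb and Dlat. Pdk4 had r of -0.42 with Pdhb, -0.23 with Dlat and -0.188 with Pdha1 on the same scale. With the remaining members its r lay between -0.296 for Pdk3 and 0.228 for Pdk1. These correlations are descriptions over points that share a library, its depth and its cell composition.

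Sgk1, Errfi1 and Ddit4 stood among the 5 genes most like Pdk4 on both measures of likeness that were used. Over 11060 genes whose mean log2 CPM reached 1, likeness was measured as the correlation of log2 CPM with Pdk4. It was taken first after removing group and cohort means, so that differences between the groups did not enter. On that measure the 5 most alike were Sgk1 (Pearson's r 0.861, Spearman's rho 0.859), Errfi1 (0.847 and 0.849), Ddit4 (0.828 and 0.853), Slc2a1 (0.814 and 0.766) and Gpd1 (0.81 and 0.772), over 30 libraries. Over the 30 libraries with the means left in they were Sgk1 (0.942 and 0.937), Ddit4 (0.923 and 0.927), Errfi1 (0.908 and 0.903), Per1 (0.878 and 0.895) and Olig2 (0.872 and 0.88). This second measure includes the diet differences by sex that Pdk4 was chosen for, so it is no separate support for the first. Sgk1 encodes a serum- and glucocorticoid-induced kinase, Ddit4 an inhibitor of mTORC1 signalling, Errfi1 a feedback inhibitor of the EGF receptor and Per1 a clock protein whose gene also responds to glucocorticoids. Slc2a1 encodes a glucose transporter of endothelium and glia, Gpd1 a glycerol phosphate dehydrogenase and Olig2 a transcription factor of oligodendrocyte lineage cells.

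**Figure D4:**
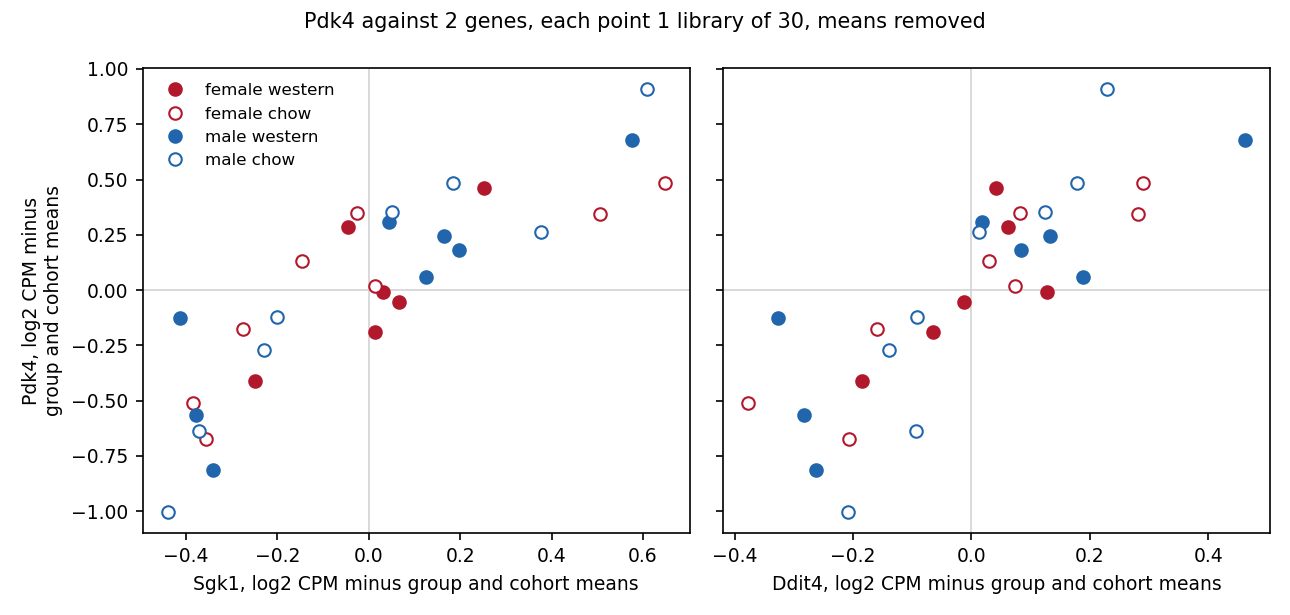
Deviations of Pdk4 (vertical axis, log2 CPM after group and cohort means were removed) against those of Sgk1 (left) and Ddit4 (right), with 1 point per library over 30 libraries, red for females, blue for males, filled for western and open for chow. Libraries high for Pdk4 within their group are also high for Sgk1 (Pearson's r 0.861) and Ddit4 (0.828).

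A list of 20 glucocorticoid and FoxO responsive genes other than Pdk4 was examined across the same comparisons, 19 of which had a row and were tested. The list was chosen with earlier results of these counts known, and Pdk4 was picked on diet effects within the sexes. The list's diet counts, medians and p-values are therefore descriptions. They are no independent evidence of a diet response or of its direction. For the difference between the sexes' diet effects (females minus males), 9 of 19 were called higher and 1 lower in edgeR, or 52.6%, against 1.23% of all genes, and the list's median was 0.25 against -0.0044 over all genes. Ddit4 averaged 136 ± 11.6 CPM in western females and 93.0 ± 16.4 CPM in chow females (SD), and 95.9 ± 20.04 CPM in western males and 145 ± 18 CPM in chow males. All 6 western females stood above every chow female for Ddit4, and 7 of 8 western males stood below every chow male. Its difference between the sexes was 1.14 ± 0.14 (adjusted p = 1.37e-05, edgeR). Sgk1 was at 214 ± 37.5 CPM in western females and 135 ± 47.4 CPM in chow females, and at 118 ± 33.9 CPM in western males and 221 ± 57.4 CPM in chow males. Of the western females, 2 of 6 stood above every chow female, and 7 of 8 western males stood below every chow male. Its difference was 1.61 ± 0.23 (adjusted p = 1e-04).

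Other genes of that list called higher for this difference were Cdkn1a, a cell cycle inhibitor (1.25 ± 0.20, adjusted p = 0.000637, edgeR), Nfkbia, the NF-kappaB inhibitor (1.04 ± 0.19, adjusted p = 0.00261), Errfi1 (0.72 ± 0.097, adjusted p = 4.4e-05) and Per1 (0.715 ± 0.11, adjusted p = 0.000376). Arrdc2, Klf9 and Irs2 were called as well, between 0.22 and 0.705. The call of Klf9 (0.25, adjusted p = 0.0428) ended in 17 of the 30 fits that left out 1 library, those without replicate 1, 2, 4, 5, 8, 9, 12, 15, 16, 18, 19, 21, 22, 23, 24, 25 or 26, with adjusted p between 0.0502 and 0.108. That of Irs2 (0.215, adjusted p = 0.0292) ended in 8, those without replicate 1, 4, 7, 9, 12, 15, 18 or 19, with adjusted p between 0.0509 and 0.0899. Txnip, an arrestin-like protein that limits glucose uptake, was called lower (-0.61 ± 0.15, adjusted p = 0.0296). That call ended in 7 such fits, those without replicates 1, 5, 7, 12, 15, 16 or 18, with adjusted p between 0.0511 and 0.0685. Within a cohort, Cdkn1a was not called in cohort 2 (1.22, adjusted p = 0.0787) or cohort 1 (1.29, adjusted p = 0.088), and Nfkbia was not called in cohort 1 (adjusted p = 0.151). Fkbp5 and Tsc22d3, singled out after their values were seen, were among the list genes not called. Fkbp5 was at 0.091 ± 0.073 (adjusted p = 0.606), and its r with Pdk4 after removal of means was 0.537, rank 225 of the 11060 genes. Tsc22d3 was at 0.498 ± 0.144 (adjusted p = 0.0739), with an r of 0.77, rank 6.

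Within each sex fewer genes of the list passed. These comparisons share their libraries with the difference above. In males 6 of 19 fell on western and 0 rose, against 0.128% of all genes called. They were Sgk1 (-0.92 ± 0.16, adjusted p = 0.00345, edgeR), Cdkn1a (-0.76 ± 0.14, adjusted p = 0.01), Ddit4 (-0.595 ± 0.096, adjusted p = 0.0023), Errfi1 (-0.40, adjusted p = 0.00259), Arrdc2 (-0.44 ± 0.085, adjusted p = 0.0148) and Per1 (-0.38, adjusted p = 0.0179). The call of Arrdc2 ended without replicate 1, 4 or 30 (adjusted p between 0.0553 and 0.0625), and that of Per1 without replicate 1, 2, 4, 5, 23 or 30 (between 0.0553 and 0.071). In cohort 2 alone none of the 6 was called in males, with adjusted p between 0.244 and 0.409. In females 2 of 19 rose, Ddit4 (0.54 ± 0.10, adjusted p = 0.0239) and Errfi1 (0.325 ± 0.071, adjusted p = 0.0455), against 0.183% of all genes. The call of Ddit4 ended without replicate 9, 12, 15, 18, 19 or 22 (adjusted p between 0.0582 and 0.116). That of Errfi1 ended in 15 of 30 such fits, those without replicate 2, 4, 6, 9, 10, 12, 15, 16, 18, 19, 21, 22, 24, 25 or 27, with adjusted p between 0.0506 and 0.195. Sgk1 in females was at 0.69 ± 0.17 (adjusted p = 0.0791). For genotype, for sex and for diet averaged over sexes, edgeR and DESeq2 called 0 of the 19, with 0 for genotype, 1 for sex and 0 for diet at an unadjusted p under 0.05.

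**Figure D5:**
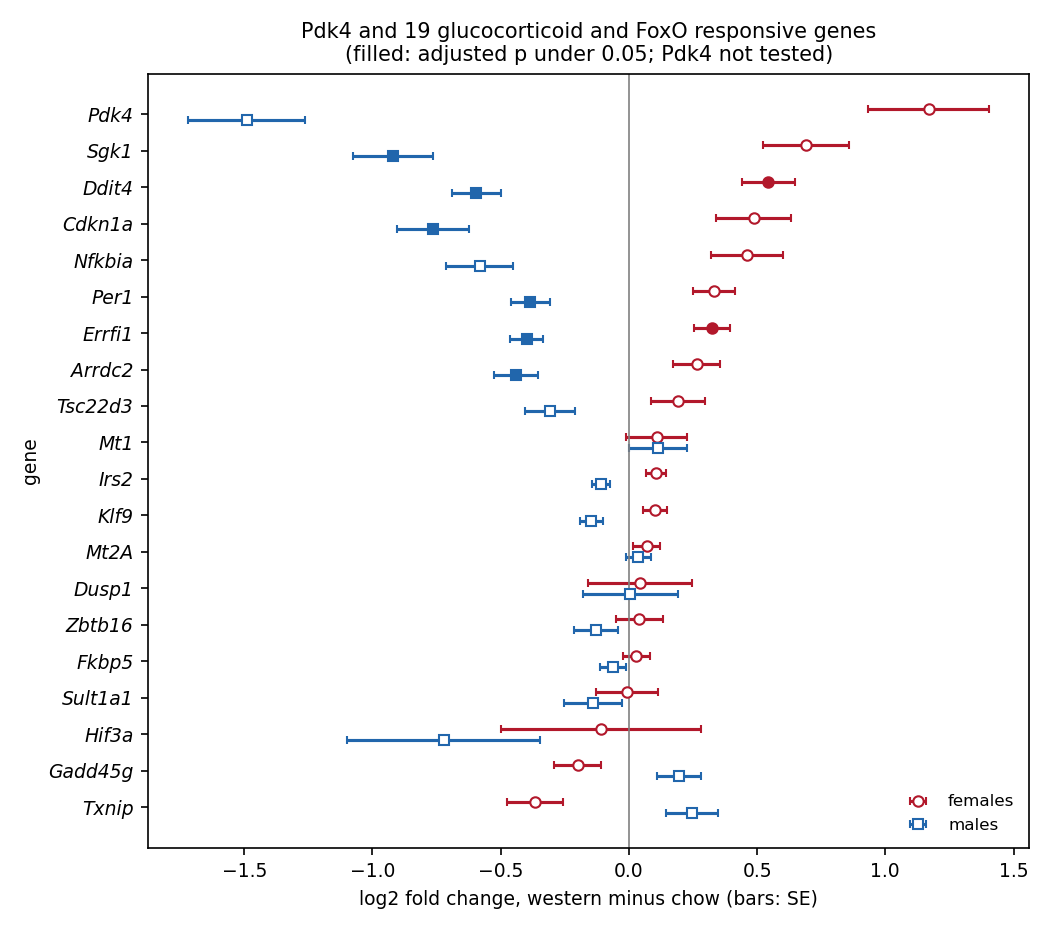
Log2 fold change of western minus chow (horizontal axis, bars are SE) in females (red circles) and males (blue squares) for Pdk4 and 19 glucocorticoid and FoxO responsive genes, filled where the adjusted p was under 0.05, with Pdk4 not tested. Pdk4 lies at 1.17 in females and -1.49 in males, and Sgk1 (0.69 and -0.92) and Ddit4 (0.54 and -0.595) lie on the same sides.

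The transcription factors known to control Pdk4 were examined through their own RNA, and their activity was not measured. Of 11 tested, edgeR and DESeq2 called 0 in the diet comparisons, where at most 2 had an unadjusted p under 0.05. For the difference between the sexes' diet effects 9 were above 0 and 2 below. Their median was 0.057, against -0.0044 over all genes. The glucocorticoid receptor gene Nr3c1 had a difference between the sexes' diet effects of 0.0086, Foxo1 one of -0.12, Foxo3 one of 0.19 ± 0.092 (adjusted p = 0.321) and Ppard one of 0.27 (adjusted p = 0.107). For genotype 1 of 11 rose, Hif1a, the oxygen-regulated factor (0.089 ± 0.021, adjusted p = 0.00675), or 9.09% of the list against 8.03% of all genes, a share near the background.

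Around the complex, single genes of related pathways passed by genotype or sex, where 8.03% of all genes were called for genotype and 0.837% for sex. For diet, edgeR and DESeq2 each called 0 of the 4 lists' genes in the diet comparisons, where at most 3 genes of a list had an unadjusted p under 0.05. Among 15 other genes of pyruvate entry and the complex, 2 fell and 0 rose by genotype, or 13.3%. Ldhb, the lactate dehydrogenase subunit that favours pyruvate formation, fell by 0.075 ± 0.016 on the log2 scale (adjusted p = 0.00221, edgeR). Slc16a3, a lactate exporter, fell by 0.47 ± 0.14 (adjusted p = 0.0344), a call that ended without replicate 3, 9, 11, 12, 14, 21, 22 or 29 (adjusted p between 0.0511 and 0.0845). By sex 1 of 15, or 6.67%, was higher in females, Pdpr, the regulatory subunit of the phosphatase (0.16 ± 0.041, adjusted p = 0.0457), which held in the fits without replicates 4, 5, 8, 9, 18, 20, 23, 28, 29 or 30 and ended in the other 20 of 30, with adjusted p up to 0.144. Of 18 genes of the tricarboxylic acid cycle 1, or 5.56%, fell by genotype, Suclg2 (-0.097 ± 0.031, adjusted p = 0.0489). That call held in the fits without replicates 1, 5, 8, 9, 14, 18, 22, 25 or 29 and ended in the other 21 of 30, with adjusted p up to 0.0921. Of 17 genes of glycolysis and glucose uptake 1, or 5.88%, fell by genotype, Aldoc, the astrocyte aldolase (-0.077 ± 0.023, adjusted p = 0.0285), a call that ended without replicate 3, 11, 15 or 19 (adjusted p up to 0.062). Of 21 tested genes of fatty acid oxidation and PPAR targets, 0 were called by genotype in edgeR or DESeq2 (8 had an unadjusted p under 0.05), and 1, or 4.76%, was higher in females, Cpt1a, the enzyme that admits long-chain fatty acids to mitochondria (0.17 ± 0.034, adjusted p = 0.0117).

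A few markers of other cell types also differed between the sexes in their diet effect, with the sign opposite to that of Pdk4, in a comparison where 1.23% of all genes were called. Of 11 endothelial markers 2 were called lower for females minus males, Egfl7 (-0.499 ± 0.11, adjusted p = 0.0178, edgeR) and Cldn5 (-0.26 ± 0.055, adjusted p = 0.0107), and all 11 were below 0. Of 12 oligodendrocyte markers edgeR and DESeq2 called 0, 3 had an unadjusted p under 0.05 and 12 were below 0, with a median of -0.19. Of 12 astrocyte markers 1 was called, Sox9 (-0.485 ± 0.10, adjusted p = 0.0113). Of these 12, 4 were above 0 and 8 below, with a median of -0.022. Of 12 microglia markers 1 was called, P2ry12 (-0.46 ± 0.11, adjusted p = 0.0236), which was not called without replicate 12 (adjusted p = 0.062). Of 12 neuron markers both tools called 0, 2 had an unadjusted p under 0.05, and the median was 0.051. The summed level of oligodendrocyte markers ranged from 8493 to 13920 CPM in western females, 11060 to 14660 CPM in chow females, 9958 to 15300 CPM in western males and 8576 to 14070 CPM in chow males. That of endothelial markers ranged from 322 to 422 CPM in western females, 378 to 441 CPM in chow females, 357 to 451.5 CPM in western males and 327 to 402 CPM in chow males. The astrocyte sum ranged from 4951 to 5451 CPM in western females, 5044 to 5445 CPM in chow females, 4838 to 5588 CPM in western males and 4537 to 5382 CPM in chow males. The microglia sum ranged from 682 to 824 CPM in western females, 702 to 823 CPM in chow females, 670 to 770 CPM in western males and 605 to 727 CPM in chow males. All of these ranges overlap between the diets in both sexes, but some means shifted oppositely in the sexes. For western against chow, oligodendrocyte sums averaged 12130 and 13050 CPM in females, and 12560 and 11200 CPM in males. Endothelial sums averaged 379 and 410 CPM in females, and 393 and 370 CPM in males. Microglia sums averaged 732 and 751 CPM in females, and 726 and 686 CPM in males. Astrocyte sums were higher on western in both sexes. Col1a2, a marker of meningeal and vascular cells, had 0 counts in every library, and no other listed marker with a row did. Choroid plexus markers ranged from 6.49 to 23.3 CPM in western females, 8.2 to 41.4 CPM in chow females, 5.60 to 17.3 CPM in western males and 5.48 to 68.5 CPM in chow males. Without the 3 libraries highest for choroid plexus markers the difference between the sexes' diet effects on Pdk4 was 2.65, against 2.66 with them. The part of the other cell types in the Pdk4 values was not tested.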

How the data were processed

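RNA of snap-frozen dorsal hippocampus was extracted with a column kit for lipid-rich tissue, enriched for polyadenylated RNA and prepared with NEB Ultra II, per the labels' protocols. The authors deposited raw counts per gene symbol for the 30 libraries, and every entry was a whole number of 0 or more. Adapters were trimmed with cutadapt and reads aligned with STAR 2.7.0a, per the submitters' processing notes. Not given in the sources used here: counting tool, strand setting, genome build and annotation. Reads from overlapping or antisense genes may thus be shared. The paralogs Mpc1l (at most 7 counts in a library) and Pdha2 (at most 6) were too low to test.

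Counts were fitted in edgeR 4.0.16 (R 4.3.3, limma 3.58.1) with a coefficient for each of the 8 groups and for cohort, TMM factors and filterByExpr (count minimum 10, total minimum 15). Two-sided quasi-likelihood F tests were adjusted by Benjamini-Hochberg over 12547 genes in each of 14 comparisons, and a gene is called where the adjusted p was under 0.05. Genotype, diet and sex effects weight the strata of the other factors equally. SE is the size of the log2 change over the root of F, and intervals are 1.96 SE on each side. Log2 CPM used a prior count of 1. Matched means are of the libraries that share the other 2 factors, without regard to cohort. Paired columns of identical values numbered 0. The fit was also run on simulated counts that held genotype changes alone, all larger than that of Pdk3, with the same spread for every gene. That run does not cover the diet comparisons, the small change of Pdk3 or the wide spread of Pdk4.

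The members and the 14 gene lists (196 genes, 193 with a row, 181 tested) were chosen with earlier results of these data known. Named were all 10 members, App, up to 4 called genes per list, comparison and direction, and the 5 genes most like Pdk4 by each measure. Arrdc2, Klf9 and Irs2 for the difference between sexes, Arrdc2 and Per1 in males, Fkbp5 and Tsc22d3 were named after their values were seen. Nr3c1, Foxo1, Foxo3 and Ppard were also named outside these rules, and none of them was called for that difference. Promoters are from RefSeq's GRCr8, which may differ from the build behind the counts. In all, 37 alternatives were run: DESeq2 1.42.0, median-of-ratios factors, every gene with a count, no cohort term, either cohort alone, leaving out 3 libraries high in choroid plexus markers, and leaving out each library in turn.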

Additional observations from a re-analysis of the deposited data

Results flagged for a closer look

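Among the 60 groups of 4 libraries examined over the 10 members, 4 held a library whose gap to its nearest neighbour was large for the range of its group, where chance gives about 1 in 20. Pdk1 in male wildtype chow replicate 26 was at 40.86 CPM, with the next at 36.55 CPM. Pdp1 in male alzheimer western replicate 28 was at 46.73 CPM, with the next at 42.61 CPM. Pdp1 in female wildtype chow replicate 20 was at 41.19 CPM, with the next at 39.21 CPM. Mpc1 in male wildtype western replicate 2 was at 116.6 CPM, with the next at 113.1 CPM.

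The diet effect differed between the sexes for the following genes, as the log2 change in females minus that in males. Pdk4 was at 2.66, which was not tested because Pdk4 was chosen for it. The difference passed edgeR's test for 154 genes, or 1.23% of all tested genes, of which only some are named here. It passed for Sgk1 (1.61), Cdkn1a (1.25), Ddit4 (1.14), Nfkbia (1.04), Errfi1 (0.724), Per1 (0.715), Arrdc2 (0.705), Klf9 (0.247), Irs2 (0.215) and Txnip (-0.613). It also passed for the endothelial markers Egfl7 (-0.499) and Cldn5 (-0.259), the astrocyte marker Sox9 (-0.485) and the microglia marker P2ry12 (-0.46). Olig2 was at 0.532, and since it was singled out for its likeness to Pdk4 over the same libraries, this is a description. Sgk1, Ddit4, Errfi1 and Per1 also stood among the genes most like Pdk4. The gene lists were chosen with earlier results of these counts known, so the passes of listed genes are descriptions as well.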

How the results depend on the processing

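Of the 135 tested member comparisons that were not called, 2 were called under at least 1 of the 37 alternatives (Dlat by genotype and Pdk3 on western), and 73 changed sign under at least 1. The count of members called for genotype was 1. It was 0 in cohort 2 alone, 0 in cohort 1 alone and 2 without the 3 libraries high in choroid plexus markers (male alzheimer chow replicate 30, female wildtype chow replicate 20 and female alzheimer western replicate 11), and between 0 and 2 when each library was left out. Dlat was the second, at 0.093 (adjusted p = 0.0439, edgeR), and it was also called without male wildtype chow replicate 7 (0.084, adjusted p = 0.0338). The count for genotype on western was 0. It was 1 with DESeq2, 1 in cohort 2 alone and between 0 and 1 when each library was left out, and the member was Pdk3 each time (0.25, adjusted p = 0.0413 in cohort 2; 0.16 to 0.19 without replicate 5, 6 or 9, adjusted p between 0.0376 and 0.0489). Of the 8 diet values of Pdk4, 1 changed sign: the effect averaged over sexes was -0.16, and 0.032 without the 3 choroid-high libraries. When each library was left out, the diet effect on Pdk4 ran from 1 to 1.27 in females and from -1.63 to -1.30 in males.

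Counts over all genes moved by more than 1.5 times as follows. Genotype had 1007, against 573 in cohort 2 and 72 in cohort 1. Sex had 105, against 254 with no filter, 241 with DESeq2, 17 in cohort 2, 23 without the choroid-high libraries and 19 to 181 with a library left out. Diet had 1, against 3 with DESeq2, 0 in cohort 2, 19 in cohort 1 and 0 without the choroid-high libraries. Diet in males had 16, against 71 with no filter, 62 with DESeq2, 0 in cohort 2 and 9 to 53 with a library left out. Diet in females had 23, against 60, 56, 2 and 1 to 36 under the same settings and 11 with no cohort term. The difference between sexes had 154, against 242 with no filter, 268 with DESeq2, 32 in cohort 2, 35 in cohort 1 and 79 to 249 with a library left out. Genotype by diet, by sex and by both had 0, against 12, 9 and 12 in cohort 1. Genotype had 157 in males, against 247 with DESeq2, 28 in cohort 1, 103 without the choroid-high libraries and 97 to 311 with a library left out. It had 322 in females, against 141 in cohort 2, 47 in cohort 1, 188 without the choroid-high libraries and 164 to 356 with a library left out. It had 398 on western, against 185 in cohort 2 and 40 in cohort 1, and 113 on chow, against 43 in cohort 2 and 29 in cohort 1. Cohort had 11, against 113 with no filter, 137 with DESeq2, 0 without the choroid-high libraries and 0 to 43 with a library left out. The cause was not tested. Cohort 1 rests on 1 library per female western group. No paired analysis was possible because each replicate number belongs to 1 library and none is shared between groups.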
